A study of Homo sapiens with 34 samples.

Results

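The 8 E2F transcription factors (E2F1 to E2F8), their dimerisation partner TFDP1 and the E2F target MYBL2 were followed in 34 SLAM-seq libraries of hTERT-RPE1, a telomerase-immortalised line of human pigment epithelium from the retina. These 10 genes, of 19041 measured, were taken by name: every annotated 3′ UTR interval whose name, with repeats of the same symbol removed, equals one of them was counted and summed per gene. The knockdown line carried a doxycycline-inducible construct that depletes CCND1, which encodes cyclin D1. The overexpression line carried the same inducible knockdown together with an inducible, FLAG-tagged CCND1 allele on a lentiviral vector, and the study used them as a source of large (knockdown) and small (overexpression) cells. Both lines received 0.5 µg/mL doxycycline and both were polyclonal for CCND1 expression, so that each line is a mixture of cells. From day 4 of induction, labelled cells were given 10 µM 4-thiouridine (s4U), renewed every 3 h over 24 h, and were then chased in 1 mM uridine for up to 1440 min. Unlabelled cells were given 10 µM uridine instead and harvested together with the 0 min cells. Each line had 17 libraries, which by replicate number form 2 time courses, of 7 and 10 libraries in the knockdown line and of 8 and 9 in the overexpression line. Whether the courses were separate cultures is not stated in the labels, so the p-values measure the spread between these courses, which may be technical.

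As background, E2F factors bind DNA next to genes needed for S phase. E2F1, E2F2 and E2F3 activate transcription, E2F4 and E2F5 act mainly as repressors with the pocket proteins RB1, RBL1 and RBL2, E2F6 represses without a pocket protein, and E2F7 and E2F8 are atypical repressors that bind without a DP partner. Cyclin D1 with CDK4 or CDK6 phosphorylates RB1, which frees the activator E2Fs. Several E2F genes and MYBL2 carry E2F sites of their own, and MYBL2 (B-MYB) joins the MuvB complex to switch on genes of G2 and mitosis.

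Because the activator E2F genes and MYBL2 were lower in knockdown cells together, the last 100 bases before their start sites are shown, with those of TFDP1, which was also lower, and of E2F6 and E2F7, which did not pass the test between the lines. The stretches are RefSeq sequence (build GRCh38.p14), 5′ to 3′ on the strand of the gene, and capitals mark each match, on either strand, to an E2F core. The core was searched as TTGGCG and with the middle GG replaced by CG (written TTCGCG), by CC (written TTCCCG) or by GC (written TTGCCG). They lie at chr20:33686386-33686485 (minus strand) for E2F1, chr1:23531234-23531333 (minus strand) for E2F2, chr6:20401779-20401878 (plus strand) for E2F3, chr20:43667014-43667113 (plus strand) for MYBL2, chr13:113584653-113584752 (plus strand) for TFDP1, chr2:11466162-11466261 (minus strand) for E2F6 and chr12:77065570-77065669 (minus strand) for E2F7.
E2F1: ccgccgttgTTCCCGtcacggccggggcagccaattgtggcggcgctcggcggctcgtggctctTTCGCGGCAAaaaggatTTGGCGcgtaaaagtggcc
E2F2: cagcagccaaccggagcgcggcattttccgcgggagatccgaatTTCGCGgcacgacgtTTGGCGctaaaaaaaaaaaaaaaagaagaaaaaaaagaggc
E2F3: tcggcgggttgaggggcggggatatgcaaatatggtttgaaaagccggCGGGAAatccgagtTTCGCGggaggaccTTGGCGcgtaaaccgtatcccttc
MYBL2: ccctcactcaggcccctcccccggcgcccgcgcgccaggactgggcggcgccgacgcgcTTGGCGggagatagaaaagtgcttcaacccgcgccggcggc
TFDP1: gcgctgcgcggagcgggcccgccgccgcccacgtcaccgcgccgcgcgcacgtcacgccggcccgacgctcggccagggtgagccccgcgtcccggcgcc
E2F6: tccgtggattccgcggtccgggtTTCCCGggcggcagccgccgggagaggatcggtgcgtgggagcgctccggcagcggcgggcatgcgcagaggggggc
E2F7: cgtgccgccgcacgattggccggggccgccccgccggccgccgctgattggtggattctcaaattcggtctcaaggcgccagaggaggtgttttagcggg
In E2F1, E2F2 and E2F3 a TTCGCG was followed by a TTGGCG on the same strand, starting 36 and 19 bases before the start site in E2F1, 56 and 41 bases before it in E2F2, and 38 and 24 bases before it in E2F3. MYBL2 had a single TTGGCG, 41 bases before its start site. In the whole window of 300 bases, 250 before and 50 after the start, E2F1 had 4 matches (of which TTCGCG and the TTGCCG read on the other strand overlap), the E2F3 window shown had 3, E2F2 had 2 and MYBL2 had 1. TFDP1 had 1 match, 119 bases before the start and outside the stretch shown. E2F6 had 3 matches, of which the TTCCCG 77 bases before the start lies in the stretch shown, E2F7 had 2, 175 and 132 bases before the start and outside it, and E2F4 had 0. In the stretches shown, TFDP1, which passed the test between the lines, had 0 matches, and E2F6, which did not pass, had 1. Whether matches go with the line difference was not tested. Of 35116 promoter windows of this length, 31.1% held at least 1 such match, 8.66% at least 2, 2.01% at least 3 and 0.333% at least 4, and by letters 8.92% held TTGGCG, 6.09% TTCGCG, 16.3% TTCCCG and 6.84% TTGCCG. Of the 10 genes, 8 had a window in the table used, E2F3 with 2 of them. The E2F3 window with more matches is shown, and the other had 1 match. A match describes the letters and is not a measured binding site.

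The reads of each gene came almost wholly from 1 annotated 3′ UTR interval (hg38), which held from 99.1% of the reads in E2F5 to 100% in E2F1, E2F2, E2F3, E2F8 and MYBL2. E2F1 was read at chr20:33675683-33676731 (minus strand, 50582 reads over all libraries), E2F2 at chr1:23506430-23509879 (minus strand, 17456 reads), E2F3 at chr6:20490431-20493715 (plus strand, 82822 reads) and MYBL2 at chr20:43716088-43716496 (plus strand, 166882 reads). E2F4 was read at chr16:67198124-67198918 (plus strand, 76375 reads), E2F5 at chr8:85212213-85216307 (plus strand, 5943 reads), E2F6 at chr2:11444375-11446523 (minus strand, 26491 reads), E2F7 at chr12:77021247-77024138 (minus strand, 43843 reads), E2F8 at chr11:19224063-19224657 (minus strand, 3409 reads) and TFDP1 at chr13:113640120-113641470 (plus strand, 154771 reads). GENCODE v44 annotates 99.8% to 100% of each of these intervals as untranslated exon of the same gene. Multimapped reads made up 48.1% of the E2F6 interval, so its counts are uncertain, against 8.13% for E2F3, 6.44% for TFDP1 and under 1% for the rest. E2F8 was the shallowest gene, with 415 reads in all knockdown libraries and 2994 in all overexpression libraries.

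Depth was 14342074 to 43290045 reads per library in single named genes, and levels are given as CPM, which scale each count to the same total of these reads. The 3 libraries that stood apart were the unlabelled library of knockdown course 1 and the unlabelled and 720 min libraries of overexpression course 1. The SD over genes of the log2 deviation from the line's median was 0.702 to 0.899 in these 3 and 0.194 to 0.415 in the other 31, and the deviations of the 3 correlated with the GC content of the intervals at r of -0.61 to -0.27 across 8398 genes, which are not independent. In the other 31 libraries this r was -0.39 to 0.41, so that the ranges overlap. MITF was present at 47.1 to 109 CPM in knockdown and 33.7 to 49.9 CPM in overexpression libraries. RPE65, TYR, TYRP1 and TTR, also pigment epithelium markers, stayed under 0.5 CPM in all libraries. OTX2 was at 0.302 to 3.71 CPM in knockdown and 0.767 to 4.76 CPM in overexpression libraries. RLBP1, BEST1, PMEL and LRAT reached at most 1.06, 0.355, 0.834 and 0.68 CPM in knockdown libraries. In overexpression libraries they reached at most 0, 0.727, 1.12 and 1.69 CPM. Vimentin (VIM) was at 5582 to 11040 CPM in knockdown and 6056 to 10310 CPM in overexpression libraries, and PTPRC and HBB of blood stayed under 0.5 CPM. Higher in knockdown cells were MITF (1 of 5 pigment epithelium markers tested) and KRT8 and KRT18 (2 of 3 simple epithelium markers tested). FN1 (1 of 3 mesenchymal markers) and SNAP25 (1 of 1 neuron marker tested) were also higher, and 0 markers were lower. Of the other simple epithelium markers, EPCAM did not pass, and KRT19 and CDH1 were too low to test. The other 4 pigment epithelium markers tested, LRAT, BEST1, OTX2 and PMEL, did not pass, with log2 differences between -1.68 (LRAT) and -0.67 (PMEL), and the median of the 5 was -0.82. KRT8 ranged over 353 to 719 CPM in knockdown and 68.5 to 426 CPM in overexpression libraries, FN1 over 2921 to 6831 CPM and 1023 to 1816 CPM, and SNAP25 over 0.452 to 9.07 CPM and 0 to 5.02 CPM, while the neuron marker RBFOX3 stayed under 0.5 CPM. Their part in the results below was not tested. CCND1 reads in its own 3′ UTR were higher in the libraries labelled knockdown, at 148.5 ± 12.04 CPM, against 57.98 ± 6.36 CPM in those labelled overexpression (SD, n = 2 courses each; log2 1.34 ± 0.13 SE, adjusted p = 0.000152). The hairpin was directed at the 3′ UTR of CCND1 and the introduced allele was made resistant to it, but no source used here says whether transcripts of that allele end in this interval. This count therefore does not check the labels, and knockdown and overexpression below are the lines as labelled.

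The first comparison asked how the abundance of these mRNAs differed between the lines, with counts summed per course over the 6 samples that all courses share (unlabelled, 0, 180, 360, 720 and 1440 min). Of the 10 genes, 6 were lower in knockdown cells (E2F1, E2F2, E2F3, E2F8, TFDP1 and MYBL2), 0 were higher and 4 did not pass (E2F4, E2F5, E2F6 and E2F7). Over all 13165 genes tested with edgeR's quasi-likelihood test, 21.9% were called in either direction and 10.7% were called lower in knockdown cells. The median log2 difference of the 10 genes was -0.44, against -0.01 over all genes tested. CPM is a share of a library's reads. Between lines used as large and small cells, a lower share need not mean fewer copies of an mRNA per cell. In bulk RNA, fewer cells that express a gene and a lower share of its RNA in each cell cannot be told apart.

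E2F2, an activator E2F, showed the widest gap of the 10 in the reported fit, with E2F8 close to it. The order turned when some courses were left out. Without overexpression course 2 E2F8 was at -2.87 and E2F2 at -2.81. Without knockdown course 1 they were at -2.83 and -2.76 (log2). In single libraries its level was 0.943 CPM at the lowest, 3.42 at the median and 7.83 at the highest in knockdown cells, against 10.9, 32.4 and 40.9 CPM in overexpression cells. Every knockdown library was thus below every overexpression library, and the lowest overexpression values, 10.9 and 11.99 CPM, were the 720 min and unlabelled libraries of course 1 that stood apart. Per course, E2F2 had 3.54 and 4.43 CPM in knockdown cells and 27.9 and 31.5 CPM in overexpression cells, a log2 difference of -2.91 ± 0.18 (SE; adjusted p = 1.25e-05). Counted from the lowest log2 difference, E2F2 had rank 57 among the 13165 genes.

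E2F1, also an activator, was lower in knockdown cells as well. Its level ranged over 18.9 to 30.4 CPM (median 24.7) in knockdown libraries and 57.3 to 89.8 CPM (median 75.2) in overexpression libraries. The lines did not overlap, so that in each of the 6 shared samples both knockdown libraries were necessarily below both overexpression libraries. Per course, E2F1 had 26.0 and 24.3 CPM in knockdown cells and 71.3 and 74.1 CPM in overexpression cells (log2 -1.54 ± 0.13 SE; adjusted p = 8.31e-05). Among all genes tested, 2.44% had 17 knockdown and 17 overexpression libraries that did not overlap, and of the 10 genes only E2F1 and E2F2 were among them.

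E2F3, also an activator, was lower by a smaller margin. Its single libraries spanned 38.2 to 102 CPM (median 64.9) in knockdown cells and 75.0 to 140 CPM (median 90.9) in overexpression cells, with 5 knockdown libraries at or above the lowest overexpression library. Per course it had 71.2 and 67.6 CPM in knockdown cells and 99.1 and 89.1 CPM in overexpression cells (log2 -0.45 ± 0.13 SE; adjusted p = 0.0306). The call was lost without knockdown course 1 (adjusted p = 0.066), without knockdown course 2 (0.14) and without overexpression course 1 (0.20), with log2 differences of -0.36 to -0.52 over the 4 courses left out in turn.

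TFDP1, which encodes the DP1 partner that most E2Fs need to bind DNA, was also lower by a small margin. It was at 104 to 166 CPM (median 119) in knockdown libraries and 156 to 199 CPM (median 174) in overexpression libraries. The only knockdown library that reached into the overexpression range was the unlabelled library of course 1, one of the 3 that stood apart. Per course TFDP1 had 137 and 124 CPM in knockdown cells and 177 and 174 CPM in overexpression cells (log2 -0.44 ± 0.12 SE; adjusted p = 0.0278). No call remained when any of the 4 courses was left out (log2 differences of -0.36 to -0.51; adjusted p of 0.052 without knockdown course 1, 0.18 without knockdown course 2, 0.12 without overexpression course 1 and 0.079 without overexpression course 2).

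Of the repressors, E2F8 alone passed. E2F8, an atypical repressor that is itself expressed around S phase, was at 0 to 3.15 CPM (median 0.590) in knockdown libraries and 3.04 to 11.8 CPM (median 5.92) in overexpression libraries. It had 0 reads in the 90 min library of knockdown course 2, where 3 counts would be 0.0880 CPM, and only the 1440 min library of that course, at 3.15 CPM, reached the overexpression range. Per course E2F8 had 0.984 and 0.813 CPM in knockdown cells and 6.52 and 4.89 CPM in overexpression cells (log2 -2.68 ± 0.32 SE; adjusted p = 0.000374). E2F7, the other atypical repressor, had 41.8 and 38.6 CPM in knockdown cells and 47.0 and 43.5 CPM in overexpression cells and did not pass (log2 -0.18 ± 0.13 SE; adjusted p = 0.38). The difference between these paralogues in their line difference was not tested.

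E2F4 and E2F5, which act with pocket proteins in quiescent cells, did not pass either. E2F4 had 76.7 and 70.0 CPM in knockdown cells and 87.6 and 81.5 CPM in overexpression cells (log2 -0.22 ± 0.13 SE; adjusted p = 0.27). E2F5 had 7.18 and 5.15 CPM in knockdown cells and 6.42 and 5.80 CPM in overexpression cells (log2 0.0020 ± 0.24 SE; adjusted p = 1.0), with 61 to 327 reads per library. E2F6, which works in the PRC1.6 Polycomb complex, had 20.9 and 21.5 CPM in knockdown cells and 24.4 and 29.3 CPM in overexpression cells (log2 -0.35 ± 0.15 SE; adjusted p = 0.12). E2F6 was called lower without the unlabelled libraries (log2 -0.45, adjusted p = 0.037).

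MYBL2, a direct E2F target and mitotic activator, had 57.9 and 71.9 CPM in knockdown cells and 226.7 and 294.1 CPM in overexpression cells (log2 -2.01 ± 0.16 SE; adjusted p = 6.96e-05). Its libraries ran over 27.8 to 92.4 CPM (median 65.7) in knockdown cells and 18.8 to 341 CPM (median 269) in overexpression cells. Both overexpression values inside the knockdown range, 18.8 CPM at 720 min and 57.2 CPM in the unlabelled library of course 1, belonged to the libraries that stood apart, as did the lowest knockdown value, 27.8 CPM in the unlabelled library of course 1. The 20 min library of overexpression course 1, at 105 CPM, was the next lowest of its line. The MYBL2 interval has a GC content of 58.9%, at the 92.3 percentile of the genes compared. In the same 720 min and unlabelled libraries of overexpression course 1, the other members of high GC content deviated from the line's median in both directions on the log2 scale, E2F1 (56.9%) by -0.39 and -0.31, E2F2 (53.6%) by -1.53 and -1.40, and E2F4 (56.5%) by 0.80 and 0.57. The part of base composition in the MYBL2 values of these libraries was not tested. Without the unlabelled and 720 min libraries the line difference of MYBL2 was -2.19 (adjusted p = 4.1e-07), that of E2F1 -1.67, that of E2F2 -3.14 and that of E2F8 -2.47, and 7 of the 10 genes were called lower, with E2F6 as the added one. Over all 12801 genes tested in that setting, 30.9% were called in either direction and 15.3% were called lower in knockdown cells.

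**Figure D1:**
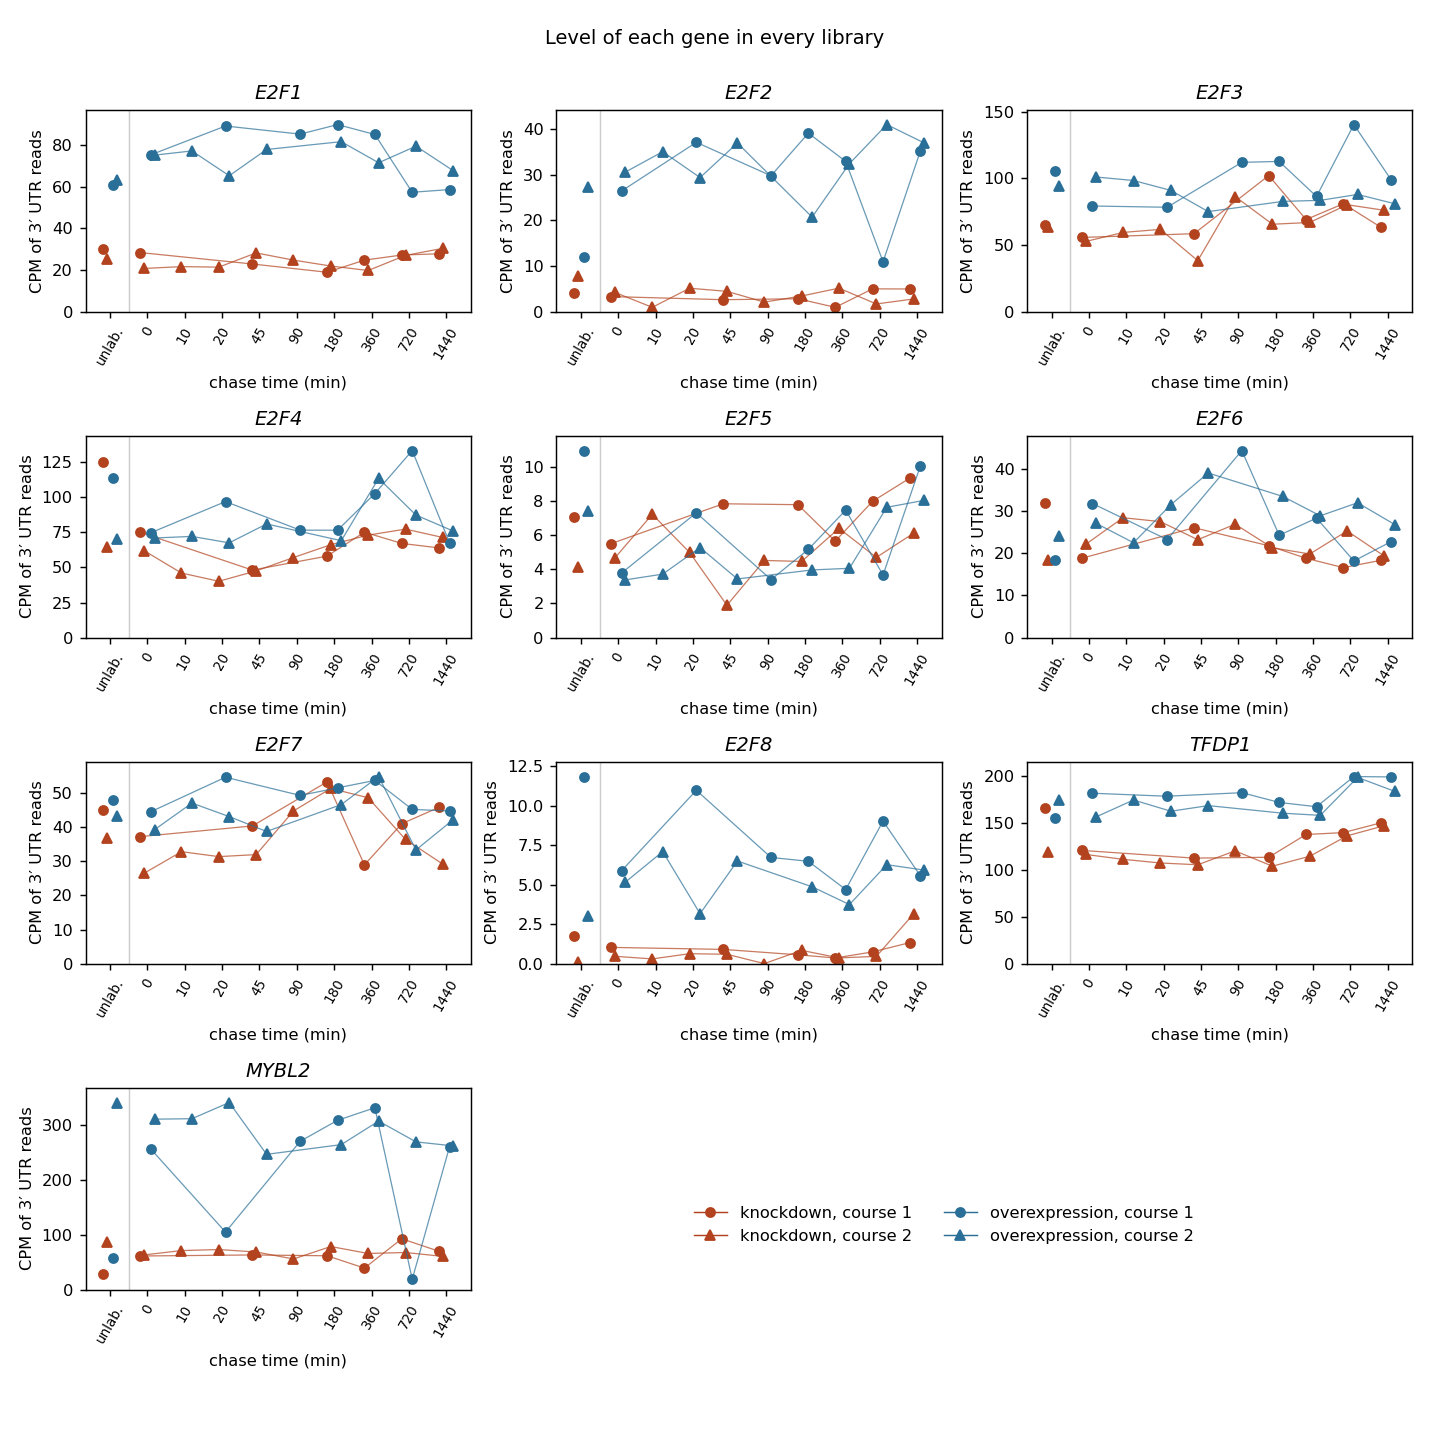
CPM of 3′ UTR reads (linear axes from 0) of each of the 10 genes in each of the 34 libraries, by chase time in min, with unlabelled libraries at the left of each panel. Red points are knockdown and blue points overexpression libraries, circles course 1 and triangles course 2, and lines join the labelled libraries of a course. E2F1 and E2F2 do not overlap between the lines, while MYBL2 falls to 18.8 CPM in the 720 min library of overexpression course 1.

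Genes that act with these factors were read from the same fit. Over all 13165 genes tested there, 10.7% were called lower in knockdown cells and 21.9% in either direction. All lists were drawn up with earlier results of these data known. Of the dimerisation partners and pocket proteins, 2 of 4 tested were lower in knockdown cells and 0 higher, with a list median of -0.49. RBL1 (p107), an E2F target and pocket protein, had 10.1 ± 0.271 CPM in knockdown cells and 31.1 ± 0.311 CPM in overexpression cells (log2 -1.64 ± 0.15 SE; adjusted p = 9.6e-05). RB1 had 66.8 ± 4.83 CPM in knockdown cells and 100.9 ± 10.2 CPM in overexpression cells (log2 -0.61 ± 0.14 SE; adjusted p = 0.0103). TFDP2 (log2 0.05) and RBL2 (log2 -0.37) did not pass. TFDP3 was too low to test.

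The list of the MuvB core and its activators, FOXM1 among them, had 4 of 6 tested genes lower and 0 higher (median -0.70). The count thus covers activators as well as subunits of the complex. LIN9 was at 9.48 ± 0.0791 CPM in knockdown cells and 18.99 ± 1.502 CPM in overexpression cells (log2 -1.01 ± 0.16 SE; adjusted p = 0.00167), and FOXM1 at 98.1 ± 18.4 CPM and 178 ± 20.2 CPM (log2 -0.87 ± 0.15 SE; adjusted p = 0.00285). LIN54 (log2 -0.49, adjusted p = 0.051) and LIN52 (log2 -0.61, adjusted p = 0.057) lay just outside the threshold. Without the unlabelled and 720 min libraries all 6 were called lower, against 15.3% of all genes tested.

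On the list of cyclins, kinases and inhibitors of the RB pathway, 16 genes were tested. Of these, 5 were lower, 3 higher and 8 did not pass, with a median of -0.08. Not all genes on it, nor all of the 5 lower ones, act on RB themselves. CDKN2D, an inhibitor of CDK4 and CDK6, was lower in knockdown cells at 21.7 ± 0.953 CPM, against 52.2 ± 2.62 CPM in overexpression cells (log2 -1.28 ± 0.14 SE; adjusted p = 0.000221). CDKN1A, which encodes the CDK inhibitor p21, had 233 ± 35.4 CPM in knockdown cells and 231 ± 25.6 CPM in overexpression cells (adjusted p = 1.0), and CDK2 did not pass (log2 -0.16, adjusted p = 0.42). CCNE1, CDK6 and CCND1 were the 3 higher ones, and CCNE1 and CDK6 are named here because the count is small, after their values were seen. Of the PRC1.6 genes that work with E2F6, 2 of 8 were lower, 1 was higher and 5 did not pass (median -0.21). PCGF6 was lower (log2 -0.70 ± 0.16 SE; adjusted p = 0.0110), MGA missed the threshold (log2 -0.62, adjusted p = 0.055), and L3MBTL2 (log2 0.04) and RYBP (log2 -0.04) were close to 0.

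Of 37 genes of the G1 to S transition with E2F sites, 35 were lower in knockdown cells and 1 was higher, with a median log2 difference of -1.19. Over all genes tested, 10.7% were called lower and the median was -0.01. This list, like the others, was drawn up with earlier results of these data known. PRIM1, a primase subunit, had 5.11 ± 0.124 CPM in knockdown cells and 16.95 ± 1.736 CPM in overexpression cells (log2 -1.74 ± 0.18 SE; adjusted p = 0.000183). CDCA7 had 20.0 ± 0.830 CPM in knockdown cells and 61.3 ± 3.20 CPM in overexpression cells (log2 -1.63 ± 0.13 SE; adjusted p = 7.25e-05). SLBP, which binds histone mRNA, differed less (log2 -0.58 ± 0.13 SE; adjusted p = 0.0122). The gene that went the other way was CCNE1, cyclin E1, a known E2F target (log2 0.73, adjusted p = 0.0121). CCNE1 was also counted on the list of cyclins, kinases and inhibitors above, so the lists are not separate sets.

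Of 27 tested genes of the G2 to M programme of MYBL2, MuvB and FOXM1, 25 were lower and 0 higher, while 2 missed the threshold (median -0.80). Over all genes tested, 10.7% were called lower. CCNA2, cyclin A2, had 117 ± 13.2 CPM in knockdown cells and 284 ± 70.3 CPM in overexpression cells (log2 -1.29 ± 0.18 SE; adjusted p = 0.000722), and AURKB, the Aurora B kinase, 144 ± 24.5 CPM and 325 ± 60.7 CPM (log2 -1.18 ± 0.16 SE; adjusted p = 0.000724). PLK1 was lower by less (log2 -0.62 ± 0.13 SE; adjusted p = 0.00822), and CENPE did not pass (log2 -0.16 ± 0.23 SE; adjusted p = 0.68). Both counts, 35 of 37 and 25 of 27, were the same without the unlabelled and 720 min libraries, where 15.3% of all genes tested were called lower.

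**Figure D2:**
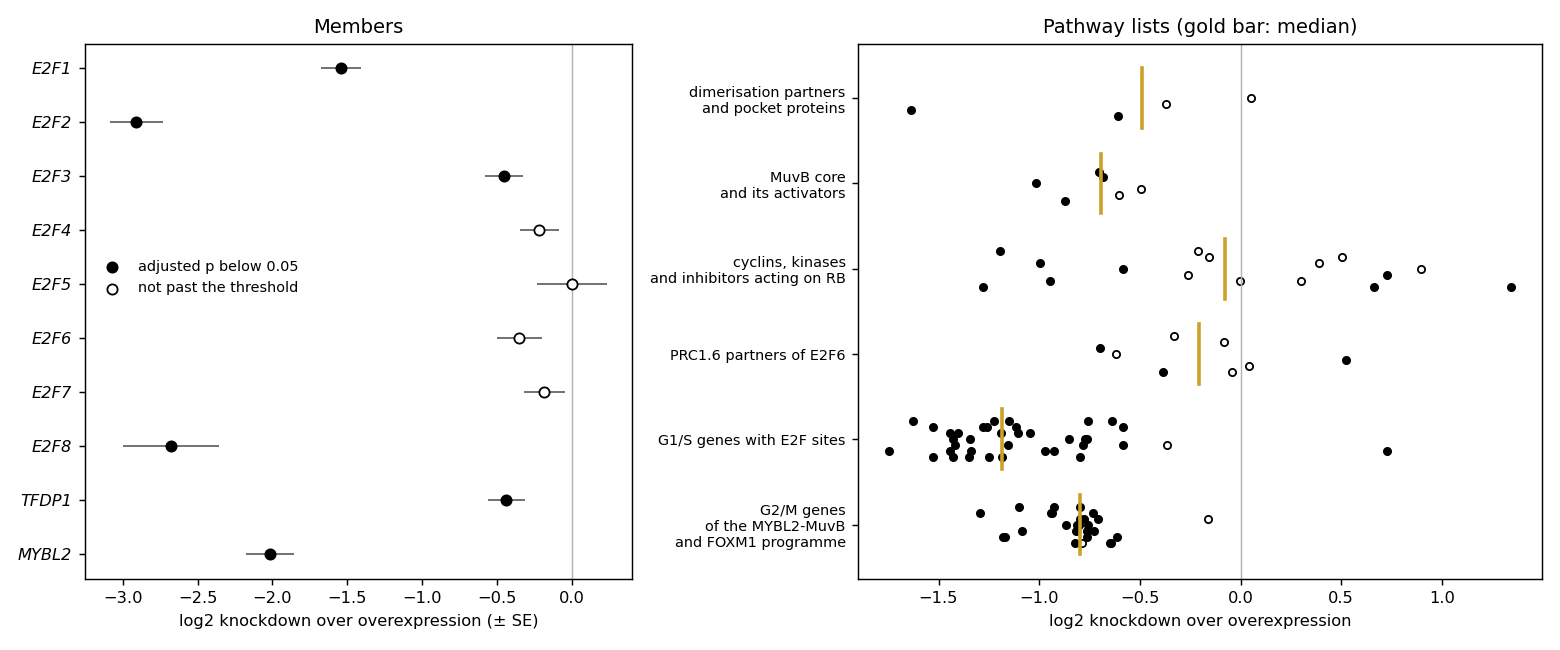
Left, log2 difference of knockdown over overexpression for the 10 genes, with bars of ± 1 SE; filled points passed an adjusted p of 0.05 and open points did not. Right, the same quantity for each tested gene of 6 pathway lists, with a gold bar at the list's median. E2F2, E2F8, MYBL2 and E2F1 lie between -2.91 and -1.54, and nearly all genes of the G1/S and G2/M lists lie below 0.

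The genes whose levels followed each member most closely over the 34 libraries were found by Pearson's r of log2(CPM + 0.5), among genes with a mean of at least 10 CPM, as a description. For E2F1 they were MCM3 (r = 0.96), MCM4 (0.95), MCM8 (0.95), RRM2 (0.94) and FANCD2 (0.94), genes of DNA replication, nucleotide supply and repair. For E2F2 they were NUP62 (0.94), STMN1 (0.93), CKS1B (0.93), MCM3 (0.93) and ALYREF (0.92). For MYBL2 they were CDT1 (0.97), CDC20 (0.96), CENPO (0.94), PPM1G (0.94) and H1FX (0.93). The libraries of a line share its level, and these values hold the line difference itself.

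With each line's mean subtracted the nearest genes were others. For E2F1 they were EED (r = 0.68), SYNCRIP (0.67), DUSP12 (0.67), TADA2B (0.65) and TXLNG (0.64), and for E2F2 SGPL1 (0.72), SGSM2 (0.70), KIF2C (0.69), SDR39U1 (0.68) and SLC48A1 (0.67). For MYBL2 they were KRT81 (0.97), CARM1 (0.96), CENPB (0.96), ETHE1 (0.95) and DDA1 (0.95). The lowest MYBL2 value of each line came from the libraries that stood apart, in which it deviated from the line's median by -1.23, -2.22 and -3.81 on the log2 scale. E2F1 deviated by 0.28, -0.31 and -0.39 and E2F2 by 0.23, -1.40 and -1.53 in the same 3 libraries. MYBL2 also deviated by -1.36 in the 20 min library of overexpression course 1, which was not among the 3.

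The second set of comparisons asked whether levels moved over the chase. At 1440 over 0 min, with 4 libraries against 4 and the line as a covariate, 0 of the 10 genes were called, against 4.63% of 11927 genes tested. E2F5 had 9.34 and 6.11 CPM at 1440 min and 5.50 and 4.67 CPM at 0 min in knockdown cells, and 10.05 and 8.04 CPM at 1440 min and 3.78 and 3.38 CPM at 0 min in overexpression cells. Each course was thus higher at 1440 min, with a log2 difference of 0.90 ± 0.31 (SE) that did not pass in edgeR (adjusted p = 0.11) and passed in DESeq2 (adjusted p = 0.049). The other 9 genes lay between -0.26 (E2F6) and 0.72 (E2F8, on few reads), with TFDP1 at 0.18 ± 0.11 and MYBL2 at -0.10 ± 0.11.

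At 360 over 0 min, 0 of the 10 genes were called, against 0.75% of 11872 genes. The differences ran between -0.72 ± 0.52 in E2F8 and 0.42 ± 0.34 in E2F5, and E2F4 was at 0.30 ± 0.14 (adjusted p = 0.47). Whether the change over 1440 min differed between the lines was tested as an interaction, in which 0 of the 10 genes and 0.0163% of 12280 genes were called. E2F1 had the smallest unadjusted p of the 10, with a difference of the log2 changes of 0.51 ± 0.28 (knockdown minus overexpression; adjusted p = 0.92). E2F1 was at 27.8 and 30.4 CPM at 1440 min and 28.3 and 20.7 CPM at 0 min in knockdown cells, and at 58.6 and 67.6 CPM at 1440 min and 75.2 and 75.1 CPM at 0 min in overexpression cells.

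Whether mRNA levels differed after labelling was tested as 0 min over unlabelled cells, a comparison of CPM and not of the label taken up. Of the 10 genes 0 were called, and 0% of the 11826 genes tested (402 genes had an unadjusted p under 0.05, and DESeq2 called 2). The differences of the 10 genes ran between -0.73 ± 0.46 in E2F5 and 0.34 ± 0.45 in MYBL2. For MYBL2 the 0 min libraries had 61.1 and 63.1 CPM and the unlabelled ones 27.8 and 86.2 CPM in knockdown cells, and in overexpression cells 256 and 310 CPM against 57.2 and 340 CPM. In each line the lowest of these 4 values belonged to the unlabelled library that stood apart.

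The third set of comparisons followed the label, the share of covered T bases read as C in each gene, which falls as labelled mRNA is lost. At 0 min E2F1 had a T>C rate of 1.18% ± 0.280 in knockdown cells, against 0.0158% ± 0.00415 in its unlabelled libraries, and 0.875% ± 0.280 in overexpression cells, against 0.0118% ± 0.00143 (SD, n = 2 each). MYBL2 had 0.831% ± 0.199 in knockdown cells and 0.745% ± 0.0917 in overexpression cells at 0 min, with unlabelled rates of 0.00878% ± 0.00252 and 0.01004% ± 0.00253. E2F3, E2F4, E2F7 and TFDP1 had 0 min means of 0.933% to 1.03% in knockdown cells and 0.961% to 1.09% in overexpression cells. In E2F5 the rate at 0 min was 0.126% and 0.0288% in knockdown cells and 0% and 0.402% in overexpression cells, too uneven to follow.

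E2F3 lost most of its label by 360 min. At that time 17.1% and 11.2% of its 0 min rate was left in knockdown cells and 16.7% and 7.07% in overexpression cells. TFDP1 kept more, with 52.6% and 61.6% left at 360 min in knockdown cells and 62.0% and 46.1% in overexpression cells. MYBL2 still had 34.7% and 54.2% at 720 min in knockdown cells and 45.8% and 31.3% in overexpression cells. The 45.8% came from the 720 min library of overexpression course 1 that stood apart, with 399 MYBL2 reads and 24 conversions. By 1440 min no more than 5.97% of the 0 min rate was left in any course of E2F1, E2F2, E2F3, E2F4, E2F7, TFDP1 or MYBL2.

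The early curves of E2F1 and MYBL2 were uneven in knockdown cells. E2F1 in knockdown course 1 had a T>C rate of 0.987% at 0 min, 0.197% at 45 min and 0.999% at 180 min, with Wilson 95% intervals at the 3 times of 0.863% to 1.13%, 0.144% to 0.271% and 0.834% to 1.2%. In knockdown course 2 it had 1.38% at 0 min, 0.428% at 10 min and 0.755% at 90 min, and MYBL2 there had 0.972%, 0.286% and 0.599% at the same times. At the dips at 45 and 10 min the Wilson intervals did not overlap those at 0 min of the same course. The intervals treat each covered T base as independent and may be narrower than the true counting error. Whether the dips exceed that error was not tested. In overexpression course 2 the E2F1 rate was higher at 180 min, at 0.856%, than at 0 min, at 0.678%. The Wilson intervals, 0.790% to 0.928% and 0.609% to 0.754%, did not overlap. MYBL2 in overexpression course 1 rose from 0.68% at 0 min to 0.917% at 20 min and 0.960% at 90 min. Uneven early curves were thus not confined to knockdown cells.

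**Figure D3:**
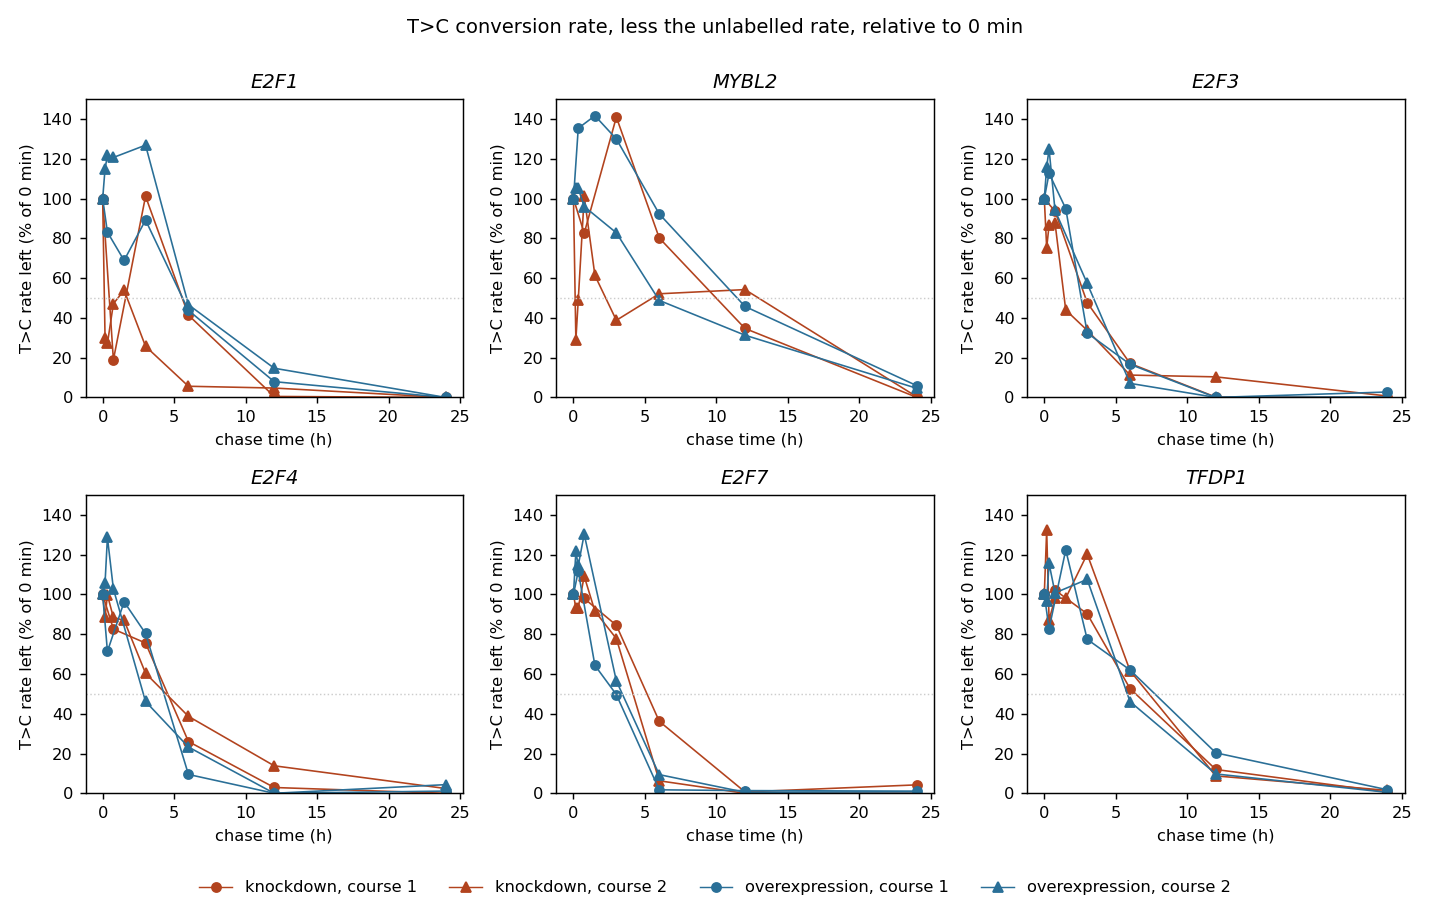
T>C conversion rate left, as percent of the 0 min rate after the rate of the unlabelled library of the course is subtracted, against chase time in h, for 6 genes. Red is knockdown and blue overexpression, circles are course 1 and triangles course 2, and the dotted line marks 50%. E2F3 falls to 17.1% or less by 360 min, while MYBL2 keeps 31.3% or more at 720 min, and the knockdown curves of E2F1 dip in the first 90 min.

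Half-lives were taken from fits of a single exponential per course, kept where R2 was at least 0.6. Of the 10 genes, 5 had a half-life in all 4 courses (E2F2, E2F3, E2F4, E2F7 and TFDP1), and limma called 0 of these 5, and 0% of the 3317 genes tested, different between the lines (256 genes had an unadjusted p under 0.05). E2F3 had half-lives of 2.72 and 1.75 h in knockdown cells and 2.81 and 2.98 h in overexpression cells (log2 -0.41 ± 0.34 SE). E2F4 had 3.83 and 4.46 h in knockdown cells and 3.67 and 3.23 h in overexpression cells (log2 0.26 ± 0.30 SE). Neither difference passed (adjusted p = 0.73 for E2F3 and 0.81 for E2F4). The courses of the lines did not overlap for either gene, nor for E2F7, which makes 3 of the 5 genes, against 42.6% of the 3317 genes tested.

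E2F7 had half-lives of 4.69 and 3.74 h in knockdown cells and 2.36 and 3.38 h in overexpression cells (log2 0.57 ± 0.33 SE; adjusted p = 0.65). TFDP1 had 6.16 and 7.72 h in knockdown cells and 7.30 and 6.39 h in overexpression cells (log2 0.01 ± 0.30 SE). E2F2, the gene with the widest gap in level in the reported fit, had 1.21 and 0.445 h in knockdown cells and 3.91 and 0.663 h in overexpression cells (log2 -1.14 ± 0.87 SE; adjusted p = 0.72). The knockdown fits rest on few reads, with 5 points of at least 81 reads in course 1 and 8 points of at least 48 reads in course 2, and 1 library of each course lay below the minimum of 1 CPM. Without overexpression course 1 the E2F2 difference was 0.14.

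Set against the 3317 genes that had half-lives in each course, whose median was 5.14 h in knockdown cells and 4.68 h in overexpression cells, E2F2 (mean of the 4 courses 1.56 h) and E2F3 (2.56 h) lay at the 0.392 and 6.51 percentiles. The place of E2F2 rests on knockdown fits at 1.68 to 5.14 CPM and on courses that spanned 0.445 to 3.91 h, and at a minimum of 5 CPM it had no knockdown fit. E2F7 (3.55 h) and E2F4 (3.80 h) lay at the 22.4 and 27.4 percentiles and TFDP1 (6.89 h) at the 76.3 percentile. For E2F1 the knockdown fits were not kept (R2 of 0.391 and 0.258), and the overexpression half-lives were 4.99 and 7.62 h. For MYBL2 knockdown course 1 gave 11.0 h and overexpression course 2 gave 6.93 h, and the other 2 fits were not kept. E2F8 gave 0.755 h in overexpression course 2 alone. E2F5 had no kept fit, and E2F6 was left out because over 10% of its reads were multimapped. These hours depended on where the fit began. Fitted from 180 min on, over 4 time points, the knockdown fits of E2F1 were kept, at 2.183 and 1.501 h. Its overexpression fits then gave 2.809 and 2.226 h. TFDP1 had 3.483 and 2.867 h in knockdown cells and 5.487 and 2.487 h in overexpression cells. E2F3 in knockdown course 2 went the other way, from 1.752 to 2.744 h. Course medians over all kept fits were 4.107 to 5.026 h from 0 min and 2.175 to 3.328 h from 180 min.

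**Figure D4:**
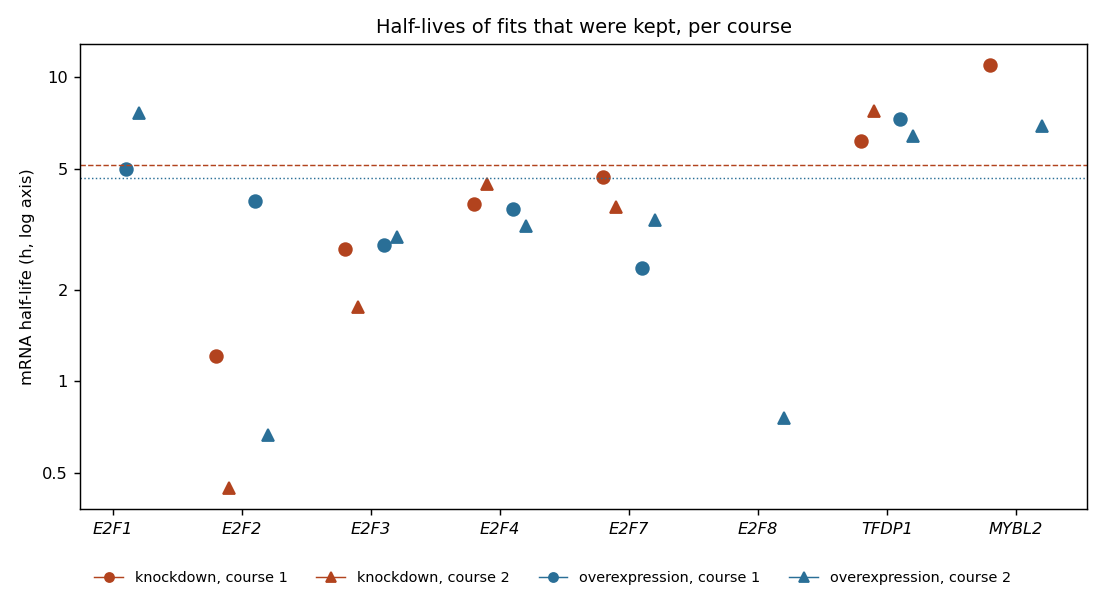
mRNA half-life in h (log axis) of each kept fit, by gene, with red for knockdown and blue for overexpression, circles for course 1 and triangles for course 2. The dashed red and dotted blue lines are the medians over 3317 genes, 5.14 h in knockdown and 4.68 h in overexpression cells. All kept fits of E2F2, E2F3, E2F4 and E2F8 lie below both lines, and those of TFDP1 and MYBL2 lie above them.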

How the data were processed

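Libraries were made from 75 ng of RNA with QuantSeq 3′ FWD after alkylation of s4U and read for 100 nt. The authors' tables, made with SLAMdunk 0.4.3 on hg38 per the file headers and labels, hold for each of 71668 3′ UTR intervals raw counts: reads, multimapped reads, converted reads, T bases covered and T>C conversions. The deposited CPM column is the count over the mapped reads of the library, and the deposited fraction, the conversion rate, equalled conversions divided by T bases covered in all 34 libraries. No source used here names the annotation release of the intervals. Groups came from the titles. The 10 genes and the pathway lists were chosen with earlier results of these data known, and the lists name at most 4 genes each (the 2 with the largest and the 2 with the smallest size of line difference among those tested), beside CCND1, the targeted gene, and CCNE1 and CDK6, which were chosen after their values were seen, and of the genes named by that rule 1 is not reported here.

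Intervals were summed per gene, without 1168 that name several genes (2.28% to 2.74% of reads). Abundance was tested with edgeR 4.0.16 (R 4.3.3, quasi-likelihood test, TMM, filterByExpr), and p-values were adjusted by Benjamini-Hochberg across the genes tested in each comparison (threshold 0.05). Course CPM are TMM-scaled, and library CPM are relative to reads in single named genes. Half-lives came from T>C rates minus the rate of the unlabelled library of the course (negative values set to 0), at 1 CPM or more, fitted to exp(-Kt) over at least 4 time points, without intervals of over 10% multimapped reads, and were tested on the log2 scale with limma 3.58.1. The study's methods do not test abundance in these libraries. SE is that of the fitted log2 difference. DESeq2 1.42.0, other normalisations, filters, samples and each course left out were tried as alternatives. The tests and the half-life fit were run on simulated data, with counts of fixed dispersion and single-exponential decay without a lag. These settings are simpler than the data, so the runs do not show how the tests perform on them.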

Additional observations from a re-analysis of the deposited data

How the results depend on the processing

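The 6 calls between the lines (E2F1, E2F2, E2F3, E2F8, TFDP1 and MYBL2) held with DESeq2, without TMM, without the filter, without multimapped intervals, without the 720 min libraries and with the 0 min libraries only. E2F1, E2F2, E2F8 and MYBL2 held with any 1 course left out, where 4 to 5 of the 10 genes were called, and none of the 10 was called with the unlabelled libraries only. Without multimapped intervals E2F6 had no main interval and was not tested. The setting without both the unlabelled and the 720 min libraries was chosen after seeing the data.

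Genes called between the lines numbered 2885 in the reported fit, 5251 with the replicate number as a block, 1870 with 0 min libraries only, 4 with unlabelled libraries only, 3953 without the unlabelled and 720 min libraries and 1992 to 2385 with a course left out. Courses of the same number deviated together at r = 0.055 only, so the numbers do not pair them, and the block added E2F6 (log2 -0.34, adjusted p = 0.019) to the 6. At 1440 min 552 genes became 861 with DESeq2 and 281 to 348 with a course left out. At 360 min 89 became 209 with DESeq2, 193 without the filter and 26 to 165 with a course left out. For 0 min over unlabelled cells 0 became 2 with DESeq2 and 14 without the filter. For the difference of the 1440 min change between the lines 2 became 14 with DESeq2, 16 without the filter, 19 with the block and 3 to 5 with a course left out. For half-lives 0 genes were called under all alternatives run.

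Signs changed only among differences that did not pass. Between the lines E2F5 was at -0.0026 without TMM, -0.02 with the block, -0.01 without the 720 min libraries, -0.67 with unlabelled libraries only and -0.26 to 0.23 with a course left out, and with unlabelled libraries only E2F4 was at 0.09 and E2F6 at 0.28. With a course left out, the 1440 min change spanned -0.25 to 0.05 in E2F1 and -0.01 to 0.28 in E2F3, and the 360 min change -0.34 to 0.18 in E2F2, -0.09 to 0.05 in TFDP1 (0.02 without TMM) and -0.18 to 0.09 in MYBL2. The difference of 0 min over unlabelled cells spanned -0.02 to 0.17 in E2F1, -0.37 to 0.28 in E2F2, -0.13 to 0.42 in E2F6, -0.55 to 0.30 in E2F8 and -0.22 to 0.03 in TFDP1, and with the block it was 0.05 in E2F2 and 0.23 in E2F8. The difference of the 1440 min change between the lines spanned -0.93 to 0.26 in E2F2, -0.20 to 0.24 in E2F4 and -0.10 to 0.36 in E2F6. The half-life difference spanned -2.42 to 0.14 in E2F2 and -0.15 to 0.18 in TFDP1, and fitted from 180 min on it was 0.51 in E2F3 and -0.23 in TFDP1. The causes were not tested. Depth was lowest for E2F5 and E2F8, whose shallowest libraries had 61 and 0 reads.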
